A study of Mus musculus with 3 samples.

Results

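The HoxB cluster of the mouse was followed bin by bin through methylated-DNA sequencing of 3 organoid libraries. All 200-bp bins of the deposited table on chromosome 11 were taken from 10 kb outside Hoxb13 to 10 kb outside Hoxb1, which is chr11:96184316-96378254 in mm10 (GRCm38) coordinates. That gave 971 of 12313737 bins, holding the 10 genes Hoxb1 to Hoxb9 and Hoxb13. The choice rests on position alone.

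The libraries came from organoids grown from crypts of the first 2.5 cm of the colon of male mice aged around 40 days. Per the design text, the mice were heterozygous for a BrafV600E allele that Cre recombinase switches on (Braf+/LSL), and the lentiviral backbone without Cre served as the control (EV), so Cre and active Braf differ together. The EV library and the Braf full medium library came from organoids in full medium, which supplies Wnt3a, R-spondin, Noggin and EGF. The Braf Base medium library came from organoids with activated Braf that had been selected to grow without stem-cell niche factors. Culture lasted 5 months, followed by 3 weeks in the stated medium. The labels do not say how many mice or clones stand behind a library, and no RNA was used here to check the cell type. Each group holds 1 library. Differences between them therefore come without replicates, and p-values are not given.

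Hox genes encode homeodomain transcription factors that give cells their position along the head-to-tail axis. They lie in 4 clusters, and within a cluster all genes point the same way, with the genes used most anteriorly at the 3' side and those used most posteriorly at the 5' side. In mouse HoxB, Hoxb13 has the lowest coordinate and Hoxb1 the highest, and the RefSeq promoter table gives the forward strand for each of the 3 members it holds (Hoxb1, Hoxb4 and Hoxb8). The low end of a Hoxb gene is thus its start side, although the start listed for Hoxb8 lies inside its span. Hox clusters are dense in CpG and are classic Polycomb targets, and DNA methylation of parts of them is a familiar feature of colorectal tumours. MBD-seq pulls down methylated DNA, so coverage rises with both methylation and CpG density, and an empty bin may be unmethylated or poor in CpG.

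Coverage is given below as the mean per 200-bp bin on the authors' scale, made from whole read overlaps per bin. For scale, the mean over all bins and libraries was 0.0597. Intervals are exact 95% intervals on estimated reads (Poisson for a level, Clopper-Pearson for a ratio of 2 libraries). Their width reflects counting error alone, so they set libraries, not conditions, side by side. The libraries held an estimated 5041726 to 8648828 reads. The Braf full medium library had a higher background than the others: over bins of the cluster outside the covered segments described below, its coverage was 0.0554, against 0.00970 in EV and 0.00815 in Base medium. In quiet tiles within 5 Mb of the cluster, background was 1.32, 1.11 and 1.38 times the genome's in EV, Braf full medium and Braf Base medium.

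The 3 stretches of sequence below help to place the results, namely the 250 bases upstream of a transcript start at Hoxb1, at Hoxb3os and at Hoxb4, from RefSeq on GRCm38.p6. They are shown 5′ to 3′ with every CG dinucleotide, the target of methylation, in capitals. Hoxb1 gained coverage in windows around its start, with the summit inside the gene and outside the printed stretch. Its calls given below belong to those windows and not to the stretch. Hoxb3os is the antisense transcript that begins inside Hoxb2 where coverage came and went, and Hoxb4 had little coverage. Hoxb3os and Hoxb4 were chosen after their values were seen. Hoxb1 was taken by a rule, as a member whose start window was called, so its choice rests on its values too.
Hoxb1 (chr11:96365508-96365757, forward strand): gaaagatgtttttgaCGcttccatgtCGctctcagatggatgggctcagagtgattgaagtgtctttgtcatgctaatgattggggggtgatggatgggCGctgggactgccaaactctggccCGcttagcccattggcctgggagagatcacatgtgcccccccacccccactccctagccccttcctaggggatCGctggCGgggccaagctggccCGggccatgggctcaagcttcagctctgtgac
Hoxb3os (chr11:96353395-96353644, reverse strand): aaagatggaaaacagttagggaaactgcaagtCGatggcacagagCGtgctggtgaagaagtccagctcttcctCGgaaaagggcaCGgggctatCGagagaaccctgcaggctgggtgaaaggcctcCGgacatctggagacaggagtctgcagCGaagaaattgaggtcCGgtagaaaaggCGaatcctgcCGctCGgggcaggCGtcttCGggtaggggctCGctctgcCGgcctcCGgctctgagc
Hoxb4 (chr11:96318017-96318266, forward strand): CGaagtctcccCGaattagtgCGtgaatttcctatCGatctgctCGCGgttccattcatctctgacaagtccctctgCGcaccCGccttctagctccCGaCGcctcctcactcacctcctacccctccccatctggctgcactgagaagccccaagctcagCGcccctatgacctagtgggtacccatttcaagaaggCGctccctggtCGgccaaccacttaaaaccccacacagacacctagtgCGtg
The Hoxb1 stretch holds 7 CG, the Hoxb3os stretch 16 and the Hoxb4 stretch 14. Of the 32851 promoters in the table, 46.3% hold at least 7 CG in the same length, 25.4% at least 16 and 29.4% at least 14. In EV, Braf full medium and Braf Base medium, mean coverage over the bins that meet each stretch was 0.151, 0.220 and 0.445 at Hoxb1. At Hoxb3os it was 0.402, 2.96 and 0. At Hoxb4 it was 0, 0.0980 and 0. The 2.96 at Hoxb3os takes in the summit bin of Braf full medium, from 96353201 to 96353400, at 4.75. That bin meets the Hoxb3os stretch only in the last bases printed, so most of it lies outside the stretch. The 0.0980 at Hoxb4 was in Braf full medium, the library with the higher background. As the stretches were chosen on their values, a link between CG content and coverage was not tested.

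Most of the cluster carried little coverage, and nearly all of what there was lay in a few short places. Runs of bins in which any library reached 5 times the overall mean (0.298), joined over gaps of up to 2 bins and at least 3 bins long, made 9 covered segments. They took up 76 bins, or 7.83% of the cluster, yet held 95.1% of its coverage in EV, 74.3% for Braf in full medium and 94.6% for Braf in Base medium. The segments were drawn on these values and are a description. Over the whole cluster, mean coverage was 0.181 in EV, 0.199 for Braf in full medium and 0.138 for Braf in Base medium. In the table as a whole it was 0.0511, 0.0832 and 0.0447. Empty bins made up 79.6%, 32.3% and 82.1% of the cluster in the same order.

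**Figure D1:**
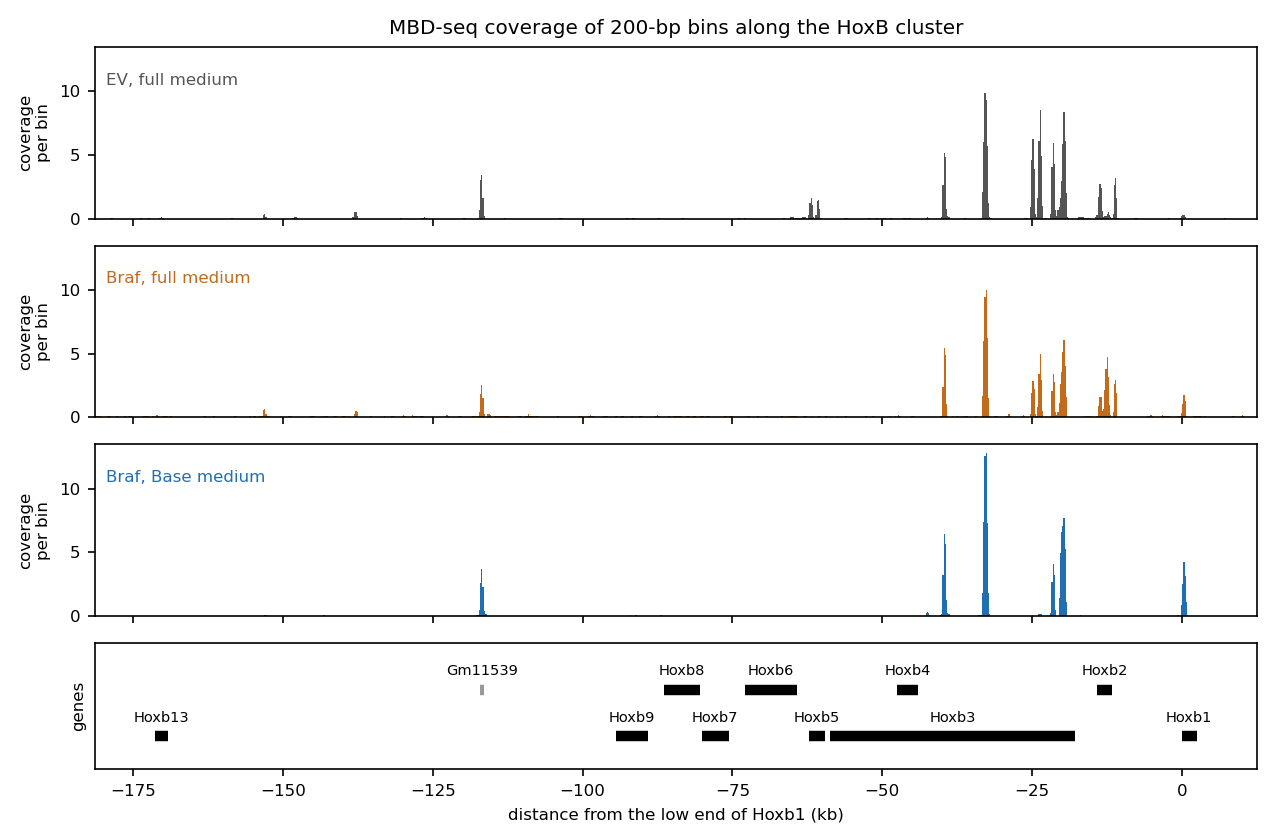
Coverage of each 200-bp bin (vertical axis, authors' scale) against distance from the low end of Hoxb1 in kb, for EV, Braf full medium and Braf Base medium, with the gene spans beneath (black, Hoxb genes; grey, the pseudogene Gm11539). Coverage stands in narrow peaks from Hoxb5 to Hoxb1 and at Gm11539, the tallest peak reaches 9.84, 10.0 and 12.8 in the 3 libraries, and Hoxb6 to Hoxb9 and Hoxb13 are close to empty.

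Posterior genes came first along the cluster and were almost bare. Hoxb13, used in the hindgut, tail and prostate, had coverage over its span of 0.0193 in EV, 0.0942 for Braf in full medium (95% interval 0.0437 to 0.168) and 0 for Braf in Base medium. Hoxb9, a patterning gene of the thoracic skeleton, had 0.00744, 0.0544 and 0.0110. Hoxb8, known for its part in myeloid progenitors, had 0.00335, 0.0653 and 0.00123. Hoxb7, active in the ureteric bud, had 0, 0.0533 and 0.00966, and Hoxb6 0.0148, 0.0612 and 0. The values of the Braf full medium library lie near its background of 0.0554 outside the segments, and the interval at Hoxb13 takes that background in. Over the 30.2 kb from the low end of Hoxb9 to the high end of Hoxb6, the highest single bin was 0.151 in EV, 0.196 for Braf in full medium and 0.0741 for Braf in Base medium. No end of Hoxb6, Hoxb7, Hoxb8, Hoxb9 or Hoxb13 was called in any comparison. Mir196a-1, a microRNA gene that lies between Hoxb13 and Hoxb9 and whose product targets Hoxb8, had 0, 0.147 and 0.0370 over the 2 bins of its span. By the size rule given next, that span was gained in full medium against EV (log2 ratio 1.79) and lost in Base medium against full medium (-1.10), from 2 estimated reads in Braf full medium (95% interval 0.0143 to 0.428). Within 1 kb of its low end it had 0, 0.0490 and 0.0135.

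Calls were made by size, since there is no test. A window counted as gained from a log2 ratio of 1 upward and as lost from -1 downward, after 0.0597 had been added to both libraries as a pseudocount. The higher library also had to reach 0.119, which is 2 times the overall mean. Log2 ratios on this scale understate the change of low windows. The cluster was cut into 194 tiles of 1 kb. With Braf in full medium against EV, 12 tiles gained and 4 lost, beside 2.83% and 0.351% of all tiles. Of the 12 gained tiles, 7 were called lost again in Base medium against full medium and not called in Base medium against EV, and those 7 stood at 0.127 to 0.147 in Braf full medium, just above the minimum. With Base medium against Braf full medium, 3 tiles gained and 17 lost, beside 0.11% and 3.14% of all tiles. With Braf Base medium against EV, 4 gained and 12 lost, beside 0.245% and 0.987%. Comparisons that involve the Braf full medium library turned on the scaling: with equal totals, which shifts log2 coverage relative to EV by -0.70 for Braf in full medium and by 0.19 for Braf in Base medium, they gave 2 gained and 11 lost, then 11 gained and 9 lost. With background subtracted they gave 4 gained and 5 lost, then 2 gained and 9 lost. Over all 2462736 tiles, equal totals gave 7394 gained and 32343 lost, then 21772 and 6434. Background subtraction gave 11135 and 19850 over all tiles, then 6532 and 13234. Under equal totals the balance of gains and losses thus turned over all tiles too, as in HoxB. Base medium against EV moved little, to 4 and 12 (equal totals) or 3 and 12 (background subtracted). All tiles gave 7881 gained and 19599 lost, or 6170 and 23863, under the same scalings. The comparisons share libraries, so their counts are not independent.

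Hoxb5, a gene expressed in the gut mesenchyme and the enteric nervous system, carried coverage across the front of its span in EV and none to speak of with Braf. The segment runs from 96303401 to 96305400 and meets Hoxb5 and the antisense transcript Hoxb5os. It stood at 0.838 in EV (95% interval 0.648 to 1.06), 0.0392 for Braf in full medium and 0 for Braf in Base medium. In EV it had a pair of summits, 1.66 in the bin from 96303801 and 1.46 in the bin from 96305001, with an empty bin between them. At the same bins, Braf full medium had 0.0980 and 0.0980, from 2 overlaps each. Full medium with Braf was 21.4-fold lower than EV (95% interval 7.71 to 117, from 3 and 67 estimated reads), and Base medium at least 30.4-fold lower. The bound is taken against 3 reads in the library at 0, as for every such bound below. Both Braf libraries were thus at or under the level of 3 reads here, and no fold is given between them. By gene end, the low end of Hoxb5 had 0.443, 0.0535 and 0 (full medium 8.28-fold lower than EV, 3.23 to 26.7). Its high end had 0.205, 0.0579 and 0.00674 (log2 ratio -1.17 in full medium against EV), a loss that was not called with a pseudocount 4 times as large (-0.58) and turned to 0.86 when the window was narrowed to 500 bp on each side and no longer reached the segment.

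Hoxb4, known for expanding blood stem cells, had 0.0167, 0.0490 and 0 over its span, and the microRNA gene Mir10a just before it had 0.0502, 0.0245 and 0.0185 over its own. Neither was called. Hoxb3, a hindbrain patterning gene with the longest span of the cluster at 40830 bp, held most of the coverage. Its span as a whole averaged 0.646 in EV, 0.537 for Braf in full medium and 0.529 for Braf in Base medium, and neither of its ends was called. That similar average covered segments that kept their coverage and a segment that did not. The table used here gives no exons, so whether a segment is exonic or intronic is not stated.

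Segments inside the Hoxb3 span at 96325801 to 96326600 and at 96332401 to 96333600 were covered in all libraries. The first had 3.35 in EV, 3.44 for Braf in full medium and 4.15 for Braf in Base medium. The second had 5.70, 5.81 and 7.29, the highest of the 9 segments in each library. Braf full medium over EV was 1.03-fold (95% interval 0.785 to 1.35) at the first and 1.02-fold (0.862 to 1.21) at the second. Base medium over EV was 1.24-fold (0.976 to 1.60) and 1.28-fold (1.10 to 1.49). The pseudogene Gm11539, between Hoxb13 and Hoxb9, had 1.80, 1.30 and 1.89 in its segment and was not called either. With equal totals, Gm11539 was called lost in full medium against EV, and all of these segments were called gained in Base medium against full medium.

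Another segment in Hoxb3, from 96340401 to 96342600, went the other way. Its coverage was 3.48 in EV (95% interval 3.10 to 3.89), 1.84 for Braf in full medium (1.58 to 2.14) and 0.0505 for Braf in Base medium. Full medium was 1.89-fold lower than EV (1.56 to 2.29), short of a call as deposited and called lost with equal totals (log2 ratio -1.57). Base medium was 36.5-fold lower than Braf full medium (16.5 to 102) and 68.9-fold lower than EV (31.5 to 191). The next segment, which begins at 96343801, showed no such change.

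That neighbour, from 96343801 to 96346600, lies where Hoxb3 and Hoxb3os overlap and had 3.15, 2.39 and 3.21. It was called in no comparison as deposited, and lost in full medium against EV and gained in Base medium against full medium with equal totals. Its shape differed between libraries on its left shoulder. In the bin from 96345401, coverage was 1.66 in EV, 2.60 for Braf in full medium and 4.96 for Braf in Base medium, and in the bin from 96345601 it was 2.96, 3.53 and 6.63. At the summit bin from 96346001 it was 8.38, 6.08 and 7.67. In the bin from 96345001, just before the shoulder, the order was reversed, with 0.653, 0.392 and 0.0370.

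A measure free of library scaling is the coverage of a segment as a share of the highest Hoxb3 segment in the same library. For the segment from 96340401 it was 61.1% in EV (95% interval 51.8 to 72.2), 31.8% for Braf in full medium (26.1 to 38.4) and 0.693% for Braf in Base medium (0.251 to 1.51). For the Hoxb3 segment from 96325801 it was 58.8%, 59.3% and 56.9%, with intervals that overlap throughout. For the Hoxb5 segment it was 14.7%, 0.675% and 0%, and for Hoxb1 it was 3.52%, 15.9% and 32.6%. The 95% intervals at Hoxb1 do not overlap, running from 11.1 to 22.3 in Braf full medium and from 26.6 to 39.6 in Braf Base medium, with EV below both. These shares thus differed between libraries to an unequal extent along the cluster, whatever the scale between libraries. Part of that follows from the choice, since segments were kept where any library was high and the reference was the highest in EV. The Hoxb5 segment reached the limit for a segment in EV alone. Each share rests on 1 library, and the differences were not tested.

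**Figure D2:**
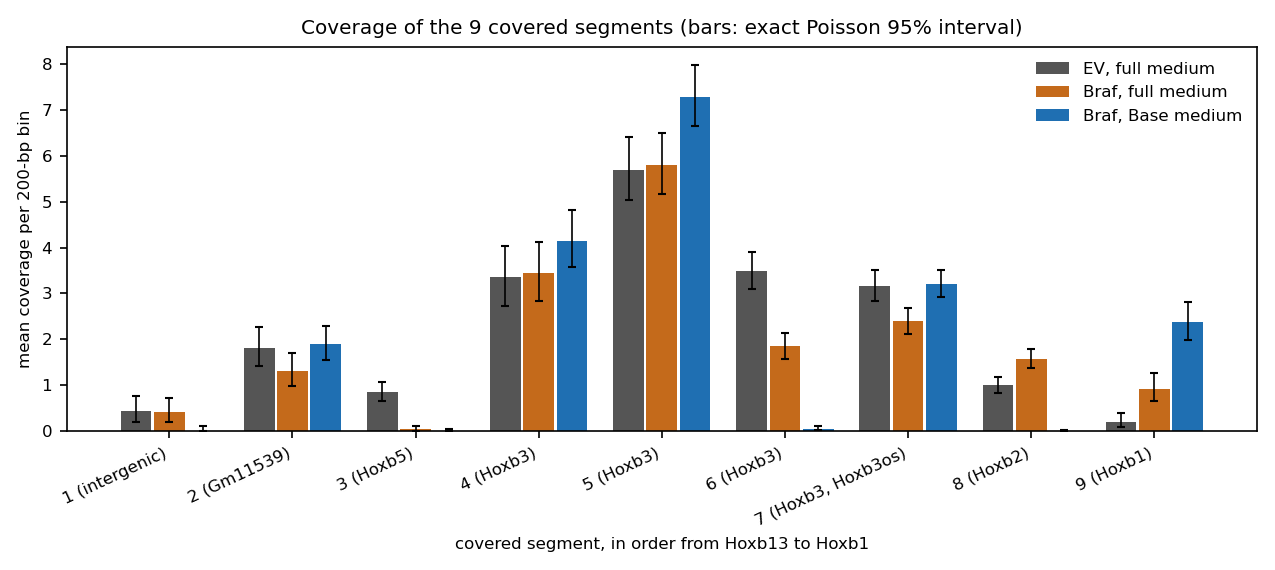
Mean coverage per 200-bp bin (vertical axis) of the 9 covered segments in order from Hoxb13 to Hoxb1, with 1 bar per library and exact Poisson 95% intervals of counting error. Segments 2, 4, 5 and 7 are covered in all 3 libraries, segments 1, 6 and 8 are empty or nearly so in Braf Base medium, segment 3 at Hoxb5 is covered in EV, and segment 9 at Hoxb1 goes from 0.201 to 0.921 and 2.38.

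Hoxb2, a regulator of hindbrain segment identity and a target of Hoxb1, was covered in both full medium libraries and empty in Base medium. Its segment, from 96351401 to 96355000, covers the gene and its downstream side, and averaged 0.99 in EV, 1.58 with Braf in full medium and 0 in Base medium. The 0 came from 18 bins without an overlap, at least 103-fold lower than Braf full medium and at least 64.6-fold lower than EV. Inside the segment the EV and Braf full medium libraries did not match, and 3 peaks could be told apart. The peaks were split at low bins of the highest library, so they were drawn on these values. Their ratios and intervals are a description. The peak at the low end of Hoxb2, from 96351401 to 96352400, had 1.49 in EV and 0.862 in Braf full medium (1.72-fold lower, 95% interval 1.14 to 2.73). The peak in the body of Hoxb2, from 96352401 to 96354000, had 0.301 in EV and 2.02 in Braf full medium (6.71-fold higher, 4.19 to 11.6). It holds the start of Hoxb3os, whose upstream stretch with 16 CG is printed above, and its summit bin from 96353201 went from 0.402 to 4.75. The peak at and beyond the high end, from 96354001 to 96355000, had 1.60 and 1.58 (ratio 0.988, 0.695 to 1.42). As deposited, Braf full medium thus had less than EV at the low end of the gene and more in its body. Past the high end its ratio to EV was near 1. These ratios depend on the scaling: with equal totals, the log2 ratio of the whole segment in full medium against EV went from 0.64 to -0.03. Ratios of the 3 peaks were not computed under that scaling. All 3 peaks were at 0 in Braf Base medium.

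At the gene ends, the high end of Hoxb2 was called gained in full medium against EV (log2 ratio 1.07) and lost after that. Its gain was not called with equal totals (log2 ratio 0.40), with a pseudocount 4 times as large (0.94) or with windows of 500 bp to each side (0.82). The low end of Hoxb2 had 0.748, 0.521 and 0.0101, with Base medium 51.6-fold lower than Braf full medium from 1 estimated read (95% interval 10.6 to 2494). With equal totals it was also called lost in full medium against EV (log2 ratio -1.09). Hoxb3os shares these windows: at its high end, where it starts, it had 0.479, 1.65 and 0.

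The emptiness of the Base medium library around Hoxb2 was bounded on both sides. Over the stretch between the Hoxb3 segment that ends at 96346600 and the Hoxb1 segment that begins at 96365601, it had 21 overlaps, against 386 in EV and 659 in Braf full medium. Coverage was 0.204 in EV, 0.340 for Braf in full medium and 0.00819 for Braf in Base medium. Leaving out the Hoxb2 segment, the other 77 bins of that stretch had 0.0202, 0.0509 and 0.0101. Over all bins of the cluster outside the segments, which include those 77 bins, the Base medium library had 0.00815. The cause of its low coverage around Hoxb2 was not tested. On either side of the stretch its coverage was 7.67 at the Hoxb3 summit and 4.26 at the Hoxb1 summit.

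**Figure D3:**
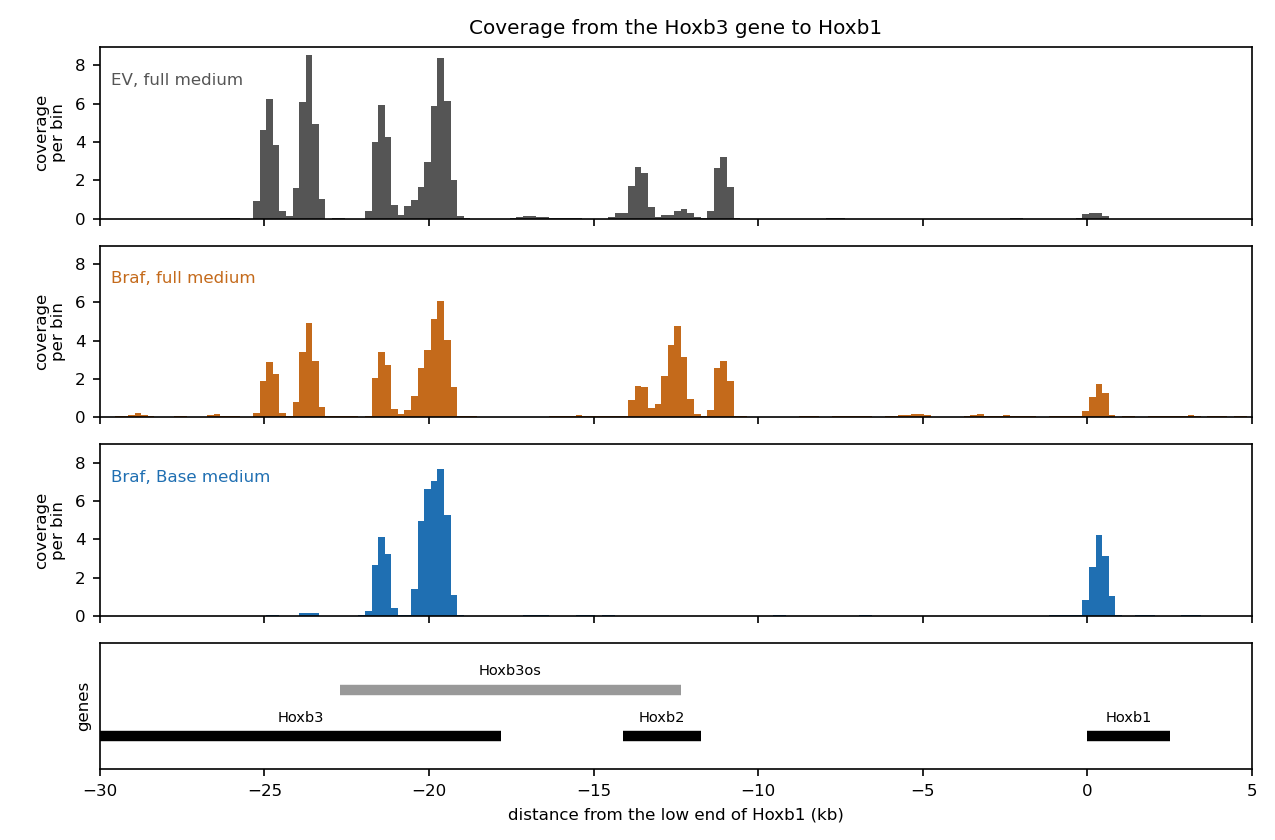
Coverage of each 200-bp bin against distance from the low end of Hoxb1 in kb, from inside Hoxb3 to beyond Hoxb1, for the 3 libraries with gene spans beneath (black, Hoxb genes; grey, Hoxb3os). The pair of peaks near -24 kb shrinks from EV to Braf full medium and is all but gone in Base medium, the peak in the body of Hoxb2 is tall in Braf full medium, and the Hoxb1 peak at 0 kb is tallest in Base medium.

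Hoxb1, which sets the identity of a hindbrain segment and answers directly to retinoic acid, gained at its start in every comparison. Its segment from 96365601 to 96366600 had 0.201 in EV (95% interval 0.0862 to 0.393), 0.921 for Braf in full medium (0.657 to 1.26) and 2.38 for Braf in Base medium (1.98 to 2.82). Full medium was 4.59-fold higher than EV (2.13 to 11.5), Base medium 2.58-fold higher than Braf full medium (1.78 to 3.77) and 11.8-fold higher than EV (5.85 to 28.1). These 3 calls also stood with equal totals and with background subtracted. At the low end of Hoxb1, however, the gain from Braf full medium to Base medium was not called with a pseudocount 4 times as large (log2 ratio 0.96). The summit bin, from 96366001, lies inside the gene and had 0.301, 1.76 and 4.26. It was the highest bin in both Braf libraries and tied with the bin before it in EV. At the high end of Hoxb1 coverage was 0, 0.0757 and 0.0202, and no call was made. The neighbours Hoxb1 and Hoxb2 thus moved in opposite directions between Braf full medium and Base medium.

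By gene, 2 of the 10 Hoxb genes gained at an end in full medium against EV (Hoxb1 and Hoxb2) and 1 lost (Hoxb5), beside 8.55% and 1.13% of all protein-coding genes. From Braf full medium to Base medium, Hoxb1 gained and Hoxb2 lost, beside 2.02% and 5.4%. In Base medium against EV, Hoxb1 gained and Hoxb2 and Hoxb5 lost, beside 6.19% and 2.61%. The median log2 ratio over the ends of the 10 genes was 0.86, -0.88 and -0.01 in the 3 comparisons, against 0.66, -0.61 and 0 over all gene ends. The 5 called tiles of Hoxb3 that lay away from its ends do not enter the count by gene.

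**Figure D4:**
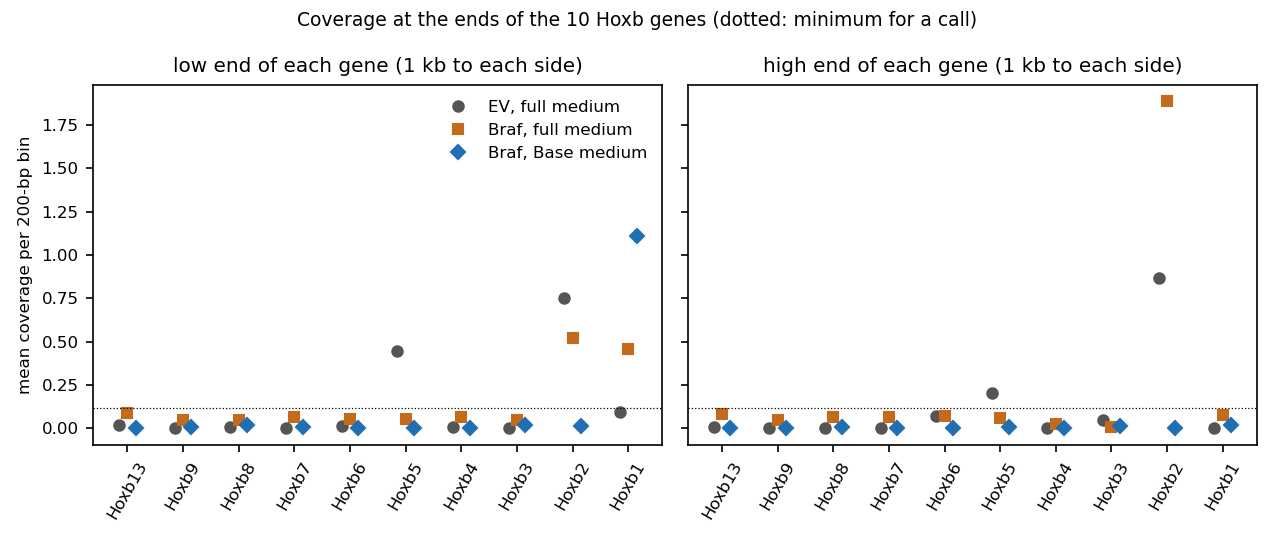
Mean coverage per 200-bp bin within 1 kb of the low end (left) and high end (right) of each Hoxb gene, in order from Hoxb13 to Hoxb1, with 1 point per library and a dotted line at the minimum of 0.119 for a call. Hoxb5, Hoxb2 and Hoxb1 rise above the line in at least 1 library, and the other 7 genes lie under it in all 3.

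Further from the genes, 2 places between the transcripts Gm11538 and Gm11539 had coverage in full medium and little in Base medium. The segment from 96227601 to 96228200 had 0.435 in EV, 0.408 for Braf in full medium and 0 for Braf in Base medium, at least 4.73-fold lower than EV and at least 4.44-fold lower than Braf full medium. The tile from 96212201 had 0.171, 0.353 and 0.0296. Both were lost in Base medium against either other library. The non-coding transcripts Gm30134, Gm11538, Gm53 and Gm51876 were bare over their spans, at 0 to 0.00386 in EV, 0.0356 to 0.0611 for Braf in full medium and 0.00399 to 0.0168 for Braf in Base medium. The outer 10 kb were bare: mean coverage was 0.00787, 0.0673 and 0.00291 outside Hoxb13 and 0.00197, 0.0432 and 0.0102 outside Hoxb1.

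The other Hox clusters were cut in the same way, and in Base medium against EV losses outnumbered gains in HoxB and gains outnumbered losses in the others. HoxA had 12 tiles gained and 2 lost of 125, HoxC 6 and 0 of 136, and HoxD 18 and 11 of 117, against the 4 and 12 of 194 in HoxB. Over all tiles 0.245% gained and 0.987% lost, so losses outnumbered gains there too, as in HoxB and unlike the other 3 clusters. With equal totals the counts were 13 and 0 for HoxA, 6 and 0 for HoxC, 18 and 10 for HoxD and 4 and 12 for HoxB, so those orders stood under both scalings. As a share of its tiles HoxD lost more than HoxB, 9.40% against 6.19%. In full medium against EV, HoxA had 13 gained and 0 lost, HoxC 12 and 0, and HoxD 13 and 5, beside 12 and 4 in HoxB. With equal totals these became 6 and 5, 5 and 1, 8 and 10, and 2 and 11. Over all tiles 2.83% gained and 0.351% lost as deposited. Equal totals gave 7394 gained and 32343 lost of 2462736. With 1 library per group these counts are a description, and the difference between clusters was not tested.

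**Figure D5:**
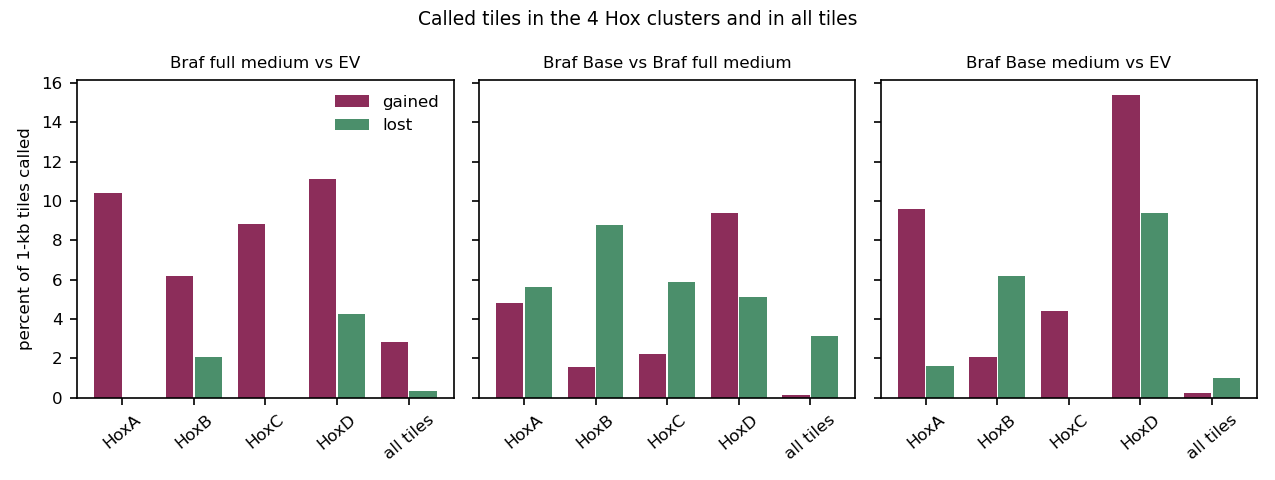
Percent of 1-kb tiles called gained or lost (vertical axis) in the HoxA, HoxB, HoxC and HoxD clusters and over all tiles, in the 3 comparisons, with the scaling as deposited. In Base medium against EV, 6.19% of HoxB tiles are lost and 2.06% gained, while gains exceed losses in each of the other 3 clusters.

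Genes that work with or on the Hox clusters were read at their ends for context. The shares of all protein-coding genes to set beside them are 8.55% gained and 1.13% lost in full medium against EV, 2.02% and 5.4% in Base medium against full medium, and 6.19% and 2.61% in Base medium against EV. Of 9 Hox cofactors of the Pbx, Meis and Pknox families, Pbx3 gained in full medium against EV (0 to 0.249) and was lost again in Base medium (0.00674), where Meis1 reached 0.152 from 0.0445. Of 16 measured Polycomb and trithorax genes, which keep Hox genes off or on, 2 gained and 1 lost in full medium against EV, with Cbx8 among the gains (0.520 to 1.37). From full to Base medium 0 of the 16 gained and 1 lost. Cbx7 was lost in Base medium against EV (0.338 to 0.0606). Of 11 retinoic acid genes, which make, degrade or sense the signal that switches on anterior Hox genes, 3 gained and 1 lost in full medium against EV. Aldh1a2, an enzyme that makes retinoic acid, went from 0.205 in EV to 1.18 with Braf in full medium and 1.56 in Base medium. From full to Base medium 1 retinoic acid gene gained and 2 lost, and against EV Base medium had 3 gained and 0 lost. With equal totals, full medium against EV gave 0 gained and 1 lost for the Polycomb and trithorax genes and 1 and 1 for the retinoic acid genes, and Base medium against EV gave the same counts as above for the retinoic acid genes. Under that scaling, Base medium against full medium gave 5 gained and 0 lost for the Polycomb and trithorax genes and 3 and 0 for the retinoic acid genes. The shares of all protein-coding genes above are for the scaling as deposited, and none is given for equal totals. Over all 1-kb tiles, gains in Base medium against full medium rose from 2720 to 21772. The counts with equal totals are therefore not read as a trait of these lists.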

How the data were processed

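Methylated DNA was captured from 3 organoid libraries (1 per group) and sequenced as single 50-bp reads. Bowtie2 and mm10 are named, without a version, in the submitters' processing notes. How reads became values per bin is not stated in those sources. The authors deposited log2 values for the 200-bp bins of chromosomes 1 to 19. Raising 2 to a value gave a shared floor of 0.0153 plus whole steps of 0.0502 (EV), 0.0490 (Braf full medium) and 0.0370 (Braf Base medium), within a tolerance of 0.001 of a step in 100% of bins. Whole numbers were taken as read overlaps. Lone reads covered on average 2.49, 2.42 and 2.48 bins, which gives the estimated reads.

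Gene spans came from RefSeq on GRCm38.p6, matched by symbol for all 10 members. Tiles start at the first bin of the cluster, and the 1 bin left over is in no tile. Windows at gene ends reach 1 kb to each side, and segments and call rules are given beside the results. Calls were tested on simulated data, and the outcome is not given here. Named were all members and other genes of the interval, per comparison up to 5 tiles gained and 5 lost, and up to 2 called genes of each list, of which 1 is not reported here. The report names the tiles through the segments and genes that hold them. Members and lists were chosen with earlier results of these data known. Python 3.11.15, numpy 2.4.6, pandas 2.3.3 and scipy 1.17.1 were used.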

Additional observations from a re-analysis of the deposited data

How the results depend on the processing

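Counts of called HoxB tiles moved by over 1.5 times under several settings. Over all tiles, counts that involve the Braf full medium library moved with the scaling as well, as given above. In Braf full medium against EV, 12 gained became 2 with equal totals and 4 with background subtracted, with a pseudocount 4 times as large, with a minimum of 5 times the mean and with 2-kb tiles. The 4 lost became 11 with equal totals, and 2 with the larger pseudocount and with 2-kb tiles. From Braf full to Base medium, 3 gained became 11 with equal totals and 1 with the larger pseudocount. The 17 lost became 9 with equal totals, with background subtracted and with the larger pseudocount, 8 with the higher minimum and 7 with 2-kb tiles. In Base medium against EV, 4 gained became 2 with the larger pseudocount, the higher minimum, 2-kb tiles and tiles shifted by 400 bp, while the 12 lost stayed between 8 and 12. With 2-kb tiles, 97 tiles were tested in place of 194. For the rest the cause was not tested. Of 12 calls at ends of Hoxb genes, 12 stood with background subtracted, 11 with equal totals, 8 with the larger pseudocount and 9 with windows of 500 bp to each side. The loss at the high end of Hoxb5 in full medium against EV turned to a log2 ratio of 0.86 with the narrower window, which no longer reaches the covered segment. Depth limits the Hoxb5 and Hoxb2 results in Braf Base medium to bounds. No paired analysis was possible because each group holds 1 library.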

Other observations

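Braf Base medium had more coverage than EV at 2 further places in the cluster. The tile from 96323201, inside Hoxb3 and beyond the high end of Hoxb4, had 0.126 in Braf Base medium, 0.0301 in EV and 0 in Braf full medium, little above the 0.119 that a call needs. The tile from 96249201, beside the pseudogene Gm11539, had 0.156 in Braf Base medium, 0.167 in Braf full medium and 0.0402 in EV. Across the 194 tiles, the Pearson correlation of log2 coverage with the pseudocount was 0.85 between EV and Braf full medium, 0.70 between EV and Braf Base medium and 0.71 between the Braf libraries; tiles share CpG content and libraries differ in background.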
